A study of Xenopus laevis with 9 samples.

Results

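Crystallins are the proteins that fill the fibre cells of the lens. Here, 10 crystallin genes of *Xenopus laevis* were followed in lens, in corneas after lens removal and in sham operated corneas. After lens removal the cornea can form a new lens, by cornea to lens transdifferentiation (CLT). Members were those probesets whose annotation gives a single symbol, equal to cryaa.S, cryba1.L, cryba2.S, crybb1.L, crybb1.S, crybb2.L, crybb3.L, crybb3.S, crygbl.4.S or crygdl.30.L. This gave 12 probesets, with 2 each for crybb1.L and crygbl.4.S (called first and second here in the order of their IDs), of 15476 tested, and 10 genes of 7527 with a symbol. All the tadpoles were wildtype, at stage 50. Lenses were removed and used for L1, L2 and L3. By the study's account the tadpoles that had lost these lenses were kept. Their corneas, which held some epidermis, were taken 3 days later for R1, R2 and R3. In the sham operated tadpoles (S1, S3 and S4) the outer cornea was cut and put back, and was also taken 3 days after surgery. Their inner cornea and lens were left in place, whereas lens removal also ruptured the inner cornea. R and S thus differ in both, and the effects of these cannot be told apart. Each sample was 1 pool, of 5 lenses or 7 to 8 corneas by the sample labels, hybridised to 1 Affymetrix GeneChip.

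*Xenopus laevis* carries a pair of related subgenomes, so that many genes have an .L and an .S copy, called homoeologs. Alpha crystallins, among them the product of cryaa, are small heat shock proteins that act as chaperones and hold other lens proteins in solution. Beta and gamma crystallins share a common protein fold and are packed at high concentration in lens fibre cells, which gives the lens its refractive power. In CLT, a new lens forms from the inner layer of the outer cornea after the old one has been taken out, and crystallins are the usual markers of the cells that take on lens fate.

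The study also designed primers for real-time PCR on several crystallins. Those for 2 of the genes here were set against the same sequence records from which their probesets were annotated. They are given here under the names of the cryaa.S and crybb1.S probesets, each written 5′ to 3′ and 20 bases long. Whether they also bind the other homoeolog of each gene was not tested. The readings of that PCR were not analysed here.
cryaa.S forward: ttcatgtcctccaccatcag
cryaa.S reverse: tgaacgcacctcagagatcc
crybb1.S forward: ttgacagagtgcgcagtgtt
crybb1.S reverse: acatctcaccacggaagttg

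The values are linear probeset intensities after robust multi-array averaging (RMA), and array medians ran from 2.99 to 3.29. Upper quartiles were 8.99 to 9.86 in L, 17.8 to 20.1 in R and 17.5 to 20.4 in S, so lens and cornea arrays differed in distribution above the median. The 5th percentile of an array lay between 0.984 and 1.06, and where a group mean lies below that the log2 difference has no exact size. Markers of corneal epithelium (13 genes measured of 21 listed) summed to 48.0 to 57.5 in L, 1516 to 1633 in R and 1685 to 1996 in S, while those of stroma (10 of 13) summed to 41.8 to 57.5, 2538 to 3381 and 2247 to 3642. Both tissues thus carried the markers of their label. The lens fibre markers lim2 and birc7, which were 2 genes measured of 7 listed, summed to 1062 to 1124 in L, 3.06 to 4.04 in R and 2.22 to 2.45 in S. R2 and S4 each differed from the other arrays of their group, in the ways given next. R2 was the R array with the most signal from photoreceptor markers, whose values are given with the order of the R arrays. The variance across probesets of S4 around the midpoint of S1 and S3 was 0.232 of the variance of the S1 to S3 difference, where equal and independent errors give 0.75 and an S4 with no error of its own gives 0.25. Whether S4 is a pool independent of S1 and S3 could not be settled, and if it is not, S holds fewer than 3 independent pools and the p-values of comparisons with S are too small. All arrays shared 1 estimate of the spread in the fit, so the p-values of L against R can then be affected as well. By the study's account CLT does not occur in every eye after lens removal, so an R pool can hold corneas without it. In bulk tissue, fewer lens-fated cells and less RNA in each of them cannot be told apart.

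In the lens, every crystallin probeset was far brighter than in cornea. All 12 were higher in L than in S (limma, adjusted p under 0.05), where 22.9% of all probesets were higher and 30.6% lower. The log2 difference ran from 8.33 for crybb2.L to 10.48 for cryba2.S, with a median of 9.81 against 0.02 over all probesets, and adjusted p lay between 1.28e-08 and 3.34e-06. Ranked by this difference, the 12 lay within the first 17 of 15476 probesets. All 12 were also higher in L than in R, where 18.6% of all probesets were, by 4.94 to 9.29 with a median of 8.27 against -0.07 over all probesets. The comparisons of L with S and of R with S share the S arrays, and those of L with S and L with R share the L arrays.

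**Figure D1:**
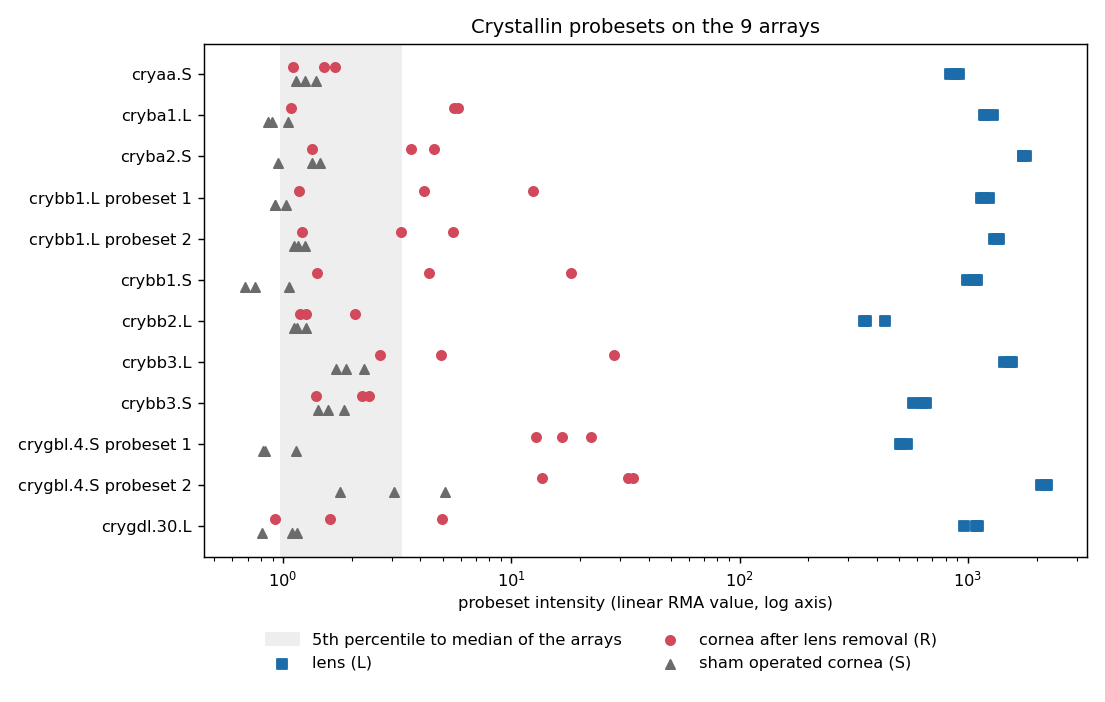
Linear RMA intensity of each crystallin probeset on the 9 arrays, on a log axis, with 1 point per array for L, R and S. The grey band runs from the lowest 5th percentile to the highest median of the arrays. L points lie at 351 or above in every probeset and R points at 34.3 or below, and most S points lie within or left of the band.

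In corneas after lens removal, only the gamma crystallin crygbl.4.S was higher in R than in S after adjustment, on both of its probesets. These were 2 of 12 probesets, where 0.485% of all probesets were higher and 0.64% lower, and no crystallin probeset was lower. All 12 estimates were positive, with a median log2 difference of 1.54 against 0.06 over all probesets. At an unadjusted p under 0.05, 8 of 12 were higher, against 7.83% of all probesets. By size of the difference, 6 of 12 lay within the first 100 probesets, from crygbl.4.S in place 5 to cryba1.L in place 90, while cryaa.S lay in place 5597. The count was 7 when R2 was left out, where 116 of all probesets were higher, and 1 when S4 was left out, where 22 were, against 75 with all arrays. R2 was the lowest R array for all 12, so every estimate rose without it.

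**Figure D2:**
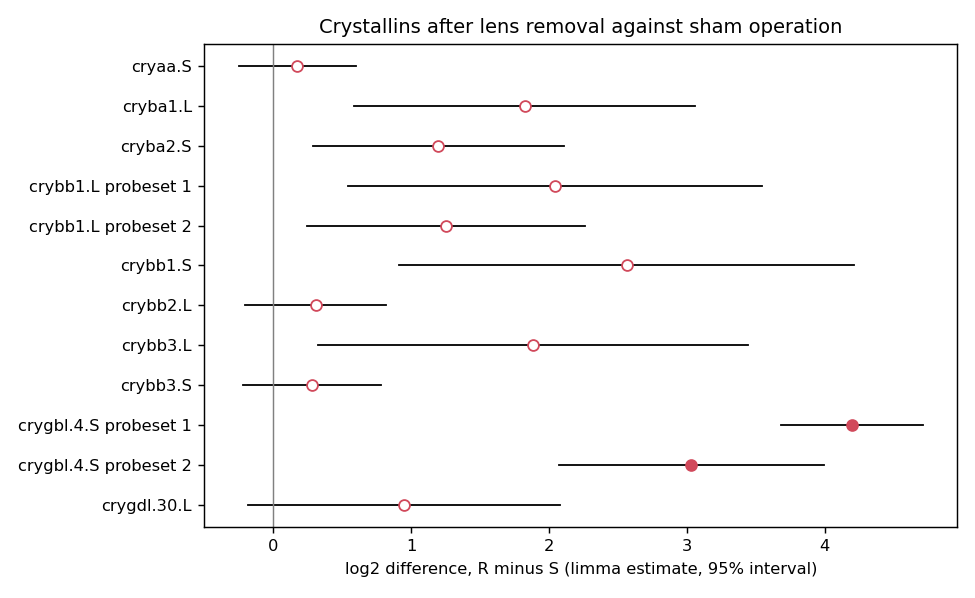
Estimated log2 difference, R minus S, for each crystallin probeset, with the 95% interval from limma (n = 3 arrays per group). Filled points passed an adjusted p of 0.05. The 2 filled points, at 4.20 and 3.03, are those of crygbl.4.S, and 4 intervals, those of cryaa.S, crybb2.L, crybb3.S and crygdl.30.L, include 0.

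The alpha crystallin cryaa.S was bright in lens and close to the array floor in both kinds of cornea. Its probeset read 914, 838 and 878 in L1, L2 and L3, 1.51, 1.11 and 1.69 in R1, R2 and R3, and 1.14, 1.39 and 1.25 in S1, S3 and S4. R2 lay below every S value and R1 and R3 above, so the R and S groups overlapped. The log2 difference of R from S was 0.17 (95% interval -0.25 to 0.60, adjusted p = 0.718), and that of L from S was 9.45. Of the members, its R against S estimate was the smallest.

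Acidic beta crystallins associate with the basic ones in the lens, and 2 of their genes were measured. For cryba1.L, L read 1193, 1180 and 1292, R read 5.83, 1.09 and 5.64, and S read 1.06, 0.894 and 0.859. R1 and R3 were nearly equal and well above all S arrays, and R2 exceeded the highest S array only narrowly. On the log2 scale the estimate for R minus S was 1.82 (SE 0.55, 95% interval 0.58 to 3.06), with an adjusted p of 0.176. Without R2 it was 2.62, with an adjusted p of 0.000805, and without R1 it was 1.41 with an adjusted p of 0.293. In the reference annotation (RefSeq, assembly Xenopus_laevis_v10.1) cryba1.L stands beside a related gene, cryba1.2.L, and whether its probes also bind that transcript was not tested.

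For cryba2.S, which encodes another acidic beta crystallin, L read 1742, 1738 and 1790, R read 4.58, 1.34 and 3.63, and S read 1.34, 0.953 and 1.45. Again R1 and R3 lay above all S arrays, and here R2 fell among them. The R minus S difference of 1.19 (SE 0.40, 95% interval 0.28 to 2.10) had an adjusted p of 0.221, and without R2 the difference was 1.73 with an adjusted p of 0.0120, against 0.84 without R1 (adjusted p = 0.352). This gene had the highest log2 difference of L from S among the members, and its lens values varied least, with an SD of 0.0239 on the log2 scale.

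Among the basic beta crystallins, both homoeologs of crybb1 were measured. The .L copy had 2 probesets. The first read 1239, 1140 and 1172 in L, 12.5, 1.18 and 4.14 in R, and 1.03, 0.927 and 0.919 in S. The second read 1358, 1304 and 1375 in L, 5.55, 1.21 and 3.27 in R, and 1.16, 1.12 and 1.25 in S. Both ranked the R arrays alike, R1 first and R2 last, but R2 cleared all S arrays on the first probeset alone. Between R and S the difference was 2.04 on the first (SE 0.66, adjusted p = 0.209) and 1.25 on the second (SE 0.45, adjusted p = 0.243). With R2 left out, both passed, at 2.91 (adjusted p = 0.0131) and 1.86 (adjusted p = 0.0115). With R1 left out they were 1.21 (adjusted p = 0.252) and 0.76 (adjusted p = 0.368).

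The .S copy of crybb1 read 996, 1062 and 1102 in L, 18.2, 1.41 and 4.38 in R, and 1.07, 0.679 and 0.752 in S. No R value overlapped with S, and R1 was far above the other two. The estimate for R minus S was 2.56 (SE 0.73, 95% interval 0.91 to 4.21), the largest of the beta crystallins, with an adjusted p of 0.156. Without R2 it was 3.45 with an adjusted p of 0.0186, and without R1 it was 1.60 with an adjusted p of 0.140. The S mean was below the 5th percentile of the arrays for this probeset, as it was for cryba1.L, the first probeset of crybb1.L and the first of crygbl.4.S, so these 4 differences have no exact size.

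The other basic beta crystallins were crybb2.L and the crybb3 pair. For crybb2.L, L read 358, 351 and 434, R read 1.26, 1.18 and 2.06, and S read 1.15, 1.12 and 1.26, so only R3 stood clear of S. For this gene R minus S was 0.31 (95% interval -0.20 to 0.82, adjusted p = 0.576). Its L minus S difference of 8.33 was the lowest of the members, and its lens values varied most, with an SD of 0.169 on the log2 scale.

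For crybb3.L, L read 1445, 1556 and 1524, R read 28.1, 2.66 and 4.92, and S read 2.27, 1.71 and 1.89. All R arrays exceeded all S arrays, and R1 was 5.71 times R3, the widest such ratio of the members. The R minus S difference of 1.88 (SE 0.69, 95% interval 0.32 to 3.44) had an adjusted p of 0.256. It was 0.90 without R1 (adjusted p = 0.182), and it did not pass without R2 either (adjusted p = 0.0711). Its homoeolog crybb3.S read 578, 630 and 653 in L, 2.38, 1.40 and 2.23 in R, and 1.85, 1.42 and 1.58 in S, where R2 was the lowest of the 6 corneas. The R minus S difference for crybb3.S was 0.28 (95% interval -0.22 to 0.78, adjusted p = 0.606).

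In the reference annotation crybb3.L and crybb2.L stand next to each other, and 10 protein-coding genes lie between crybb3.L and crybb1.L, against 8 between crybb3.S and crybb1.S. A further probeset, outside the rule because its annotation names both crybb3.L and crybb3.S, read 969, 955 and 961 in L, 37.6, 3.25 and 13.3 in R, and 4.34, 2.17 and 2.27 in S. There R2 fell within the S range, and the R minus S difference was 2.08 (SE 0.72, adjusted p = 0.233).

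Gamma crystallins are monomers, and in mammals they are concentrated in the fibre cells at the centre of the lens. The first probeset of crygbl.4.S read 503, 508 and 539 in L, 22.4, 12.9 and 16.6 in R, and 1.14, 0.834 and 0.817 in S. The lowest R array, R2, was still far above the highest S array, so the groups were widely separated. The R minus S difference was 4.20 (SE 0.23, 95% interval 3.69 to 4.71, adjusted p = 5.71e-05), in place 5 of all probesets, and L was still 4.94 above R. This call held in all 19 alternative settings, with adjusted p from 8.54e-06 to 0.0124.

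The second probeset of crygbl.4.S read 2230, 2090 and 2192 in L, 34.3, 13.7 and 32.5 in R, and 5.11, 1.78 and 3.06 in S. Again R and S were separate, but S1, S3 and S4 were spread more widely, with an SD of 0.759 on the log2 scale. The difference was 3.03 (SE 0.43, adjusted p = 0.0119), in place 16. It did not pass without S4 (adjusted p = 0.0602) or in a fit of R and S alone (adjusted p = 0.0827). The gene belongs to a family of 8 crygbl genes on its chromosome in the reference annotation, and the second probeset is of the _x_at type, some of whose probes can match related transcripts, so signal from other members of the family cannot be told apart.

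For crygdl.30.L, from a family of 29 crygdl genes on its chromosome, L read 1110, 961 and 1084, R read 1.60, 0.923 and 4.96, and S read 1.15, 0.810 and 1.09. R3 was the highest here by a factor of 3.10 over R1, and R2 lay within the S range. The R minus S difference was 0.95 (SE 0.50, 95% interval -0.19 to 2.08, adjusted p = 0.424), and it was 0.27 without R3 (adjusted p = 0.739) and 1.48 without R2 (adjusted p = 0.122). The gamma crystallins thus held both the probeset that differed most between R and S and one whose interval included 0.

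Set against its own lens mean, each probeset gives the R signal as a percent of lens. The scale describes single probesets and gives no order of genes, since the pairs of probesets of crygbl.4.S and of crybb1.L differed on it by more than 2-fold. Lens values were among the highest on the arrays, and the second crygbl.4.S probeset was the highest on L1, L2 and L3. Whether the lens signal was near the upper limit of the arrays was not tested. If it was, differences of L from cornea are too small and percents of lens too large. On this scale R was 3.35% ± 0.928 (SD, n = 3) of lens for the first crygbl.4.S probeset, with 4.34% in R1, 2.49% in R2 and 3.22% in R3, against 0.180% in S. The second crygbl.4.S probeset reached 1.24% ± 0.526, against 0.153% in S. On both, even R2 lay above every S array. The other gamma crystallin, crygdl.30.L, stood at 0.237% ± 0.205 in R and 0.0969% in S.

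Among the beta crystallins, R was 0.788% ± 0.933 of lens for crybb3.L and 0.759% ± 0.851 for crybb1.S, with an SD larger than the mean because R1 alone reached 1.86% and 1.73%. For the other beta crystallin probesets the mean lay between 0.181% for cryba2.S and 0.502% for the first crybb1.L probeset, with 0.248% on the second. The alpha crystallin cryaa.S stood at 0.164% ± 0.0340 in R and 0.144% in S. With the S mean subtracted from both R and L, the value was 0.0204% for cryaa.S, 0.0624% for crybb3.S, 0.0852% for crybb2.L and 0.140% for crygdl.30.L, and 3.18% for the first crygbl.4.S probeset.

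**Figure D3:**
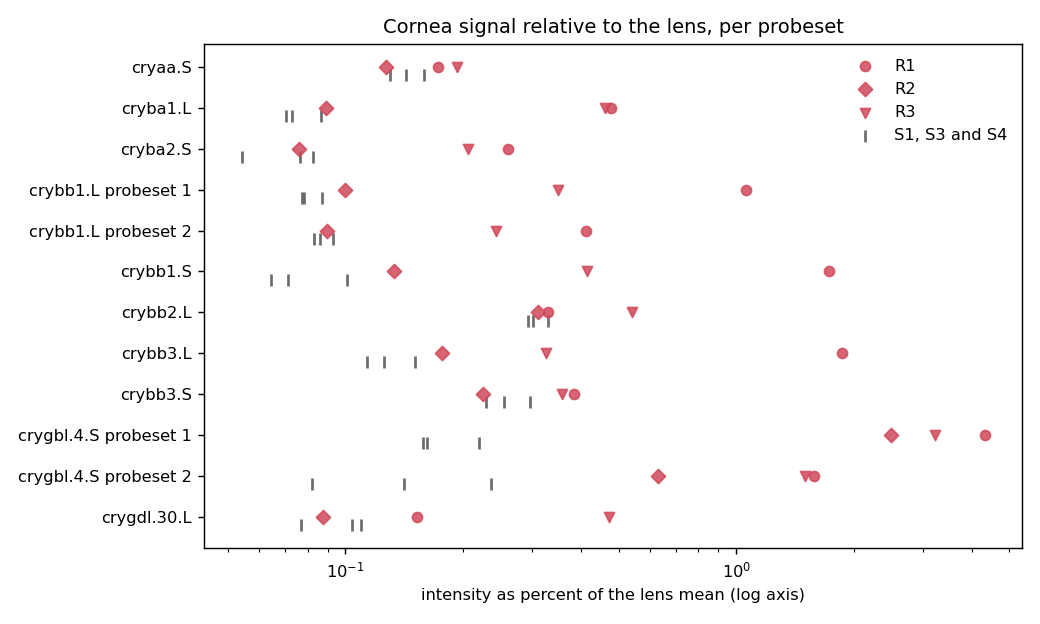
Intensity of each R and S array as a percent of the probeset's mean over L1, L2 and L3, on a log axis; symbols mark R1, R2 and R3, and grey ticks the S arrays. On the first crygbl.4.S probeset the R arrays lie at 2.49% to 4.34%, apart from the grey ticks, and R2 lies near the grey ticks for most other probesets.

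The R arrays differed among themselves in the same order for most crystallins. R2 was the lowest R array in 12 of 12 probesets, against 32.6% of all probesets, and R1 was the highest in 9 of 12, against 27.3%. R3 was the highest in the other 3, cryaa.S, crybb2.L and crygdl.30.L, against 40.8% of all. R1 and R3 both exceeded all S values in 11 of 12 (21.3% of all probesets), the exception being crybb2.L. All 3 R arrays did so in 6 of 12 (12.3% of all): cryba1.L, crybb1.S, crybb3.L, the first crybb1.L probeset and both of crygbl.4.S. The 12 probesets are not replicates, since they were read on the same arrays and several belong to 1 gene or family.

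The spread within R was accordingly wide. Its median SD was 1.03 on the log2 scale over the crystallin probesets and 0.289 over all, with a highest value of 1.85 for crybb1.S, and 5 crystallin probesets exceeded the 95th percentile of all. In L the median SD was 0.0616 against 0.258 over all probesets, and in S it was 0.198 against 0.181. Summed over the 12 probesets, the intensity was 138 in R1, 40.1 in R2 and 86.1 in R3, against 13.6 to 19.5 in S and 13360 to 14036 in L.

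Among the R arrays, genes listed as markers of rod and cone photoreceptors, cells of the retina behind the lens, were highest where crystallins were lowest. Of 23 listed, 13 were measured, and R2 was the highest R array for all 13, with R1 above R3 in all 13. Over all probesets, R1 was the highest R array in 27.3% and R3 in 40.8%. The 13 genes were read on the same arrays and are not replicates. Their summed level was 209 in R1, 680 in R2 and 126 in R3, against 98.6 to 138 in S and 166 to 366 in L. Of these sums, gnb1.S alone gave 102, 146 and 101 in R1, R2 and R3, and 83.5, 123 and 88.1 in S1, S3 and S4. The listed gene nrl.S read 5.51, 5.69 and 2.27 in R and 2.05 to 2.31 in S. It was higher in L than in S (4.98, adjusted p = 1.60e-06). Its lens values were even, at 73.0, 68.8 and 67.0, whereas gnat1.L read 14.8, 25.9 and 4.31 there. By these values nrl.S may not mark photoreceptors alone here, which was not tested. For the 13 genes, the median log2 difference from the S mean was 1.22 in R1, 3.62 in R2 and 0.17 in R3. For the crystallins it was 2.44, 0.17 and 1.84. Of the 13 genes, 1 was called higher in R than in S, beside 0.485% of all probesets. This was rom1.L, which encodes a rod outer segment membrane protein (6.54, adjusted p = 0.0267). It read 69.7, 288 and 7.15 in R, against 0.581, 0.713 and 0.430 in S1, S3 and S4. These S readings were at the array floor, and 0.430 was the lowest value on S4. The size of the rom1.L difference is therefore uncertain. Pigment cell markers (4 measured of 9 listed) summed to 90.5 to 135 in R and 184 to 206 in S. Of these sums, pmel-a alone gave 73.9, 108 and 102 in R, and 150, 170 and 150 in S. The R minus S estimates were -0.74 for pmel-a and -0.97 for tyrp1.L, but 0.35 for mitf.L and 0.21 for rpe65.S. None of these passed (adjusted p from 0.336 to 0.638). The part of these cell types in the crystallin values was not tested. The results without R2 do not test it, since R2 was the lowest R array in all 12 crystallin probesets.

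**Figure D4:**
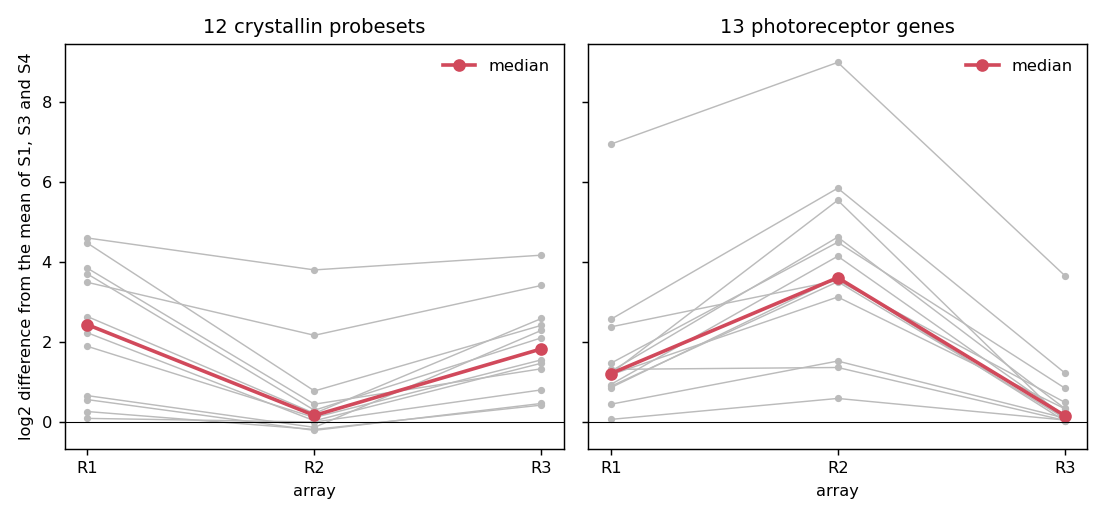
Log2 difference of R1, R2 and R3 from the mean of the S arrays, for the 12 crystallin probesets (left) and 13 photoreceptor genes (right). A grey line joins the values of 1 probeset and the red line the medians, which are lowest in R2 for crystallins (0.17) and highest in R2 for photoreceptor genes (3.62).

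Homoeologs were compared within each array, as the log2 value of the .L copy minus that of the .S copy, with both crybb1.L probesets averaged. Since the copies have different probes, only a change of this value between groups was read. For signals near the floor, the size of such a change is uncertain as well. For crybb1 it was -1.13, -0.24 and -0.25 in R, and 0.03, 0.59 and 0.51 in S, so that the groups did not overlap, with a difference of -0.92 towards the .S copy. With the brighter crybb1.L probeset in place of the average, this was -0.52. For crybb3 it was 3.56, 0.93 and 1.14 in R, and 0.30, 0.26 and 0.27 in S, also without overlap, with a difference of 1.60 towards the .L copy. Both had p = 0.1 in a two-sided exact permutation test, which is the smallest p that 3 against 3 arrays allow (0.133 adjusted over 4 tests), so neither could pass a threshold of 0.05.

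In lens the crybb1 value was 0.38, 0.20 and 0.20, within the range of S (exact permutation p = 0.6). The crybb3 value in lens was 1.32, 1.30 and 1.22, above S by 1.01 (exact permutation p = 0.1, 0.133 adjusted) and between R1 and the other R arrays. In S the crybb1.S and first crybb1.L probesets were at the floor of the arrays. The crybb3.S probeset read 1.42 to 1.85 in S and 1.40 to 2.38 in R, below the array medians, so the size of the crybb3 change is uncertain too. Whether the probes of 1 copy also bind transcripts of the other was not tested.

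**Figure D5:**
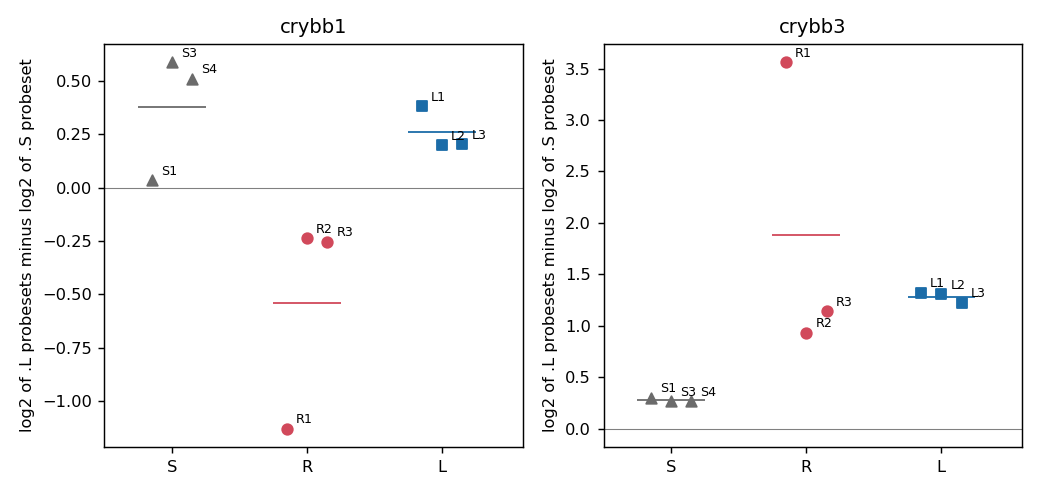
Log2 value of the .L copy minus that of the .S copy on each array, for crybb1 (left) and crybb3 (right), with lines at group means. In R the crybb1 points lie below those of S and L (mean -0.54), whereas the crybb3 points lie above those of S (mean 1.88), with R1 at 3.56.

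Other genes with a crystallin name behaved differently from each other. The gamma crystallin cryga.4.L, not among the members, had a mean of 12.8 in L, 0.805 in R and 0.894 in S, so it was higher in lens (log2 difference from S 3.84, adjusted p = 2.85e-07), and its R minus S difference of -0.15 did not pass (adjusted p = 0.757). crym.S encodes mu-crystallin, a thyroid hormone binding protein related to enzymes, and it was lower in lens than in S (-0.65, adjusted p = 0.0315), with means of 12.8 in L, 25.8 in R and 20.6 in S. cryzl1.L, whose product resembles the enzyme zeta-crystallin, had means of 9.32, 13.6 and 10.0, and neither L nor R differed from S after adjustment (adjusted p = 0.677 and 0.441).

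Likeness to the crystallin profile was measured as the root mean square difference over the 9 arrays between the centred log2 values of a probeset and the median profile of the members. Members lay at 0.225 to 1.52, and the median of all probesets was 4.43. Among probesets with a single symbol, and with crystallin names left out, the nearest was lim2.L, at 0.511, which encodes a membrane protein of lens fibres. It read 788, 806 and 764 in L, 1.52, 1.13 and 2.39 in R, and 0.984, 0.914 and 1.03 in S, with R2 again the lowest R array and all R values above all S values. Its R minus S difference was 0.71 (SE 0.25, adjusted p = 0.238). MGC84384 (0.732), ptgds-b (0.978), birc7-b (1.03) and hao2.L (1.09) followed, and their R minus S differences, at 0.13, 0.42, 0.40 and -0.27, did not pass (adjusted p from 0.310 to 0.707).

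Regulators of crystallin genes were followed by a list of transcription factors and cofactors, of which 17 of 26 were measured, each by its brightest probeset. None was called higher or lower in R than in S, with a median difference of 0.33 against 0.06 over all probesets. By those probesets, the smallest p belonged to six6.S, an eye field homeobox gene (log2 difference 0.72, adjusted p = 0.203), and pax6.L, which encodes a master regulator of eye development (0.38, adjusted p = 0.351). Other probesets of pax6.L disagreed, with differences from -0.43 (adjusted p = 0.481) to 0.79 (adjusted p = 0.182), and the latter had a smaller p than six6.S. A dimmer probeset, that of six3.L, was picked out after its values were seen. This homeobox gene read 7.94, 2.84 and 9.05 in R and 1.56, 0.966 and 1.29 in S, with the same low R2 (difference 2.24, SE 0.45, adjusted p = 0.0589). The probesets of its homoeolog six3.S had differences of 0.42 (adjusted p = 0.622) and -0.07 (adjusted p = 0.914), and the brightest six3 probeset is the former. In lens, 8 of the 17 were higher than in S and 6 lower, beside 22.9% and 30.6% of all probesets, among them prox1.L, a fibre differentiation factor (4.28 higher, adjusted p = 4.26e-07), and pax6.L (0.99 lower, adjusted p = 0.00101).

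Non-crystallin lens fibre proteins gave 10 measured genes of 17 listed, each by its brightest probeset. Of these, 7 were higher in L than in S and none was lower, beside 22.9% and 30.6% of all probesets, with a median difference of 3.97 against 0.02 over all. None passed between R and S, where the median was 0.39 against 0.06 over all. The smallest p among them was that of slc7a5.L, an amino acid transporter gene, which read 4.83, 15.8 and 7.62 in R and 3.40, 2.90 and 2.88 in S (difference 1.45, SE 0.36, adjusted p = 0.108). Here R2 was the highest R array, unlike in the crystallins, and by p lim2.L came next. A dimmer probeset of celf1.S, picked out after its values were seen, had a smaller p than lim2.L. It read 2.88, 4.97 and 8.36 in R and 2.61, 2.29 and 1.83 in S (difference 1.15, adjusted p = 0.167). The brightest celf1 probeset, also of celf1.S, had a difference of -0.06 (adjusted p = 0.965), and that of celf1.L had 0.60 (adjusted p = 0.285).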

How the data were processed

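RNA of 9 pools was amplified by the authors with a NuGEN Ovation kit. The authors computed intensity by RMA in GenePattern and deposited linear values of 15611 probesets. Version and options of that step are not given in the sources used. Sample labels and the study's methods differ on pool size. The 135 control probesets were left out, with no filter on low values. The annotation gave 1 symbol for 9296 of 15476 probesets and several for 195, while 5985 had none. Through the gene ID, 2 symbols were updated.

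Log2 values entered 1 limma 3.58.1 fit of all 9 arrays (lmFit and eBayes under R 4.3.3) with 6 residual degrees of freedom. Tests were two-sided, p-values were adjusted by Benjamini-Hochberg across the 15476 probesets and the threshold was 0.05. The fit was tested on simulated data. Other values were computed with Python 3.11.15 and scipy 1.17.1. The limma p-values rest on the spread between pools within all 3 groups, which eBayes moderates by the spread of the other probesets. Precision is limited by the 3 arrays of each group. Members and lists were chosen with earlier results of these data known. All members, the 5 nearest profiles, other crystallin names and, of each list, passing genes or the 2 smallest p are named. The alternatives were offsets of 1 and 8, 3 normalisations, a filter (mean log2 of at least 2), fits of 2 groups, array weights (statmod 1.5.0), trended and robust eBayes, a replicate block, each array left out, other summaries of the percent of lens and of the homoeologs, and, added after the data were seen, R2 and S4 left out together. Protein and promoter sequences were not used here.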

Additional observations from a re-analysis of the deposited data

How the results depend on the processing

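No direction reversed for any crystallin probeset. The count of 12 of 12 higher in L held against S and against R in every alternative, as did R2 as the lowest R array in 12 after quantile normalisation. The 2 probesets higher in R than in S became 1 when R and S were fitted alone and 1 with the replicate block. In that block no other array had the number of S4, so S4 added nothing to R minus S, and R2 had no S array of its number. The setting is thus close to leaving S4 out. The count became 4 with array weights, where S4 took a weight of 10.5, R2 0.736 and R3 the lowest, 0.331. Leaving out single arrays gave 1 (without S4) to 7 (without R2), and leaving out R2 and S4 together, chosen after the data were seen, gave 4, while all probesets higher in R numbered 22, 116 and 13 in these fits. The causes were not tested. The call of the first crygbl.4.S probeset held throughout, with a log2 difference of 1.49 to 4.39, while the second did not pass with the replicate block (adjusted p = 0.109). Array weights added cryba1.L (adjusted p = 0.0494) and crybb1.S (adjusted p = 0.0359). Over all probesets, array weights called 372 higher and 266 lower in R, against 75 and 99, the fit of R and S alone 37 and 43, and the replicate block 5 and 8. Deviations of same-numbered arrays had correlations of -0.10 to 0.13, and the numbers were not taken as pairs. For L with R, which shared tadpoles by the study's account, these were 0.022, 0.133 and 0.091. Those of L with R under different numbers were lower, from -0.125 to 0.018. Deviations were taken from the group mean and cancel out within a group, so lower values there follow from positive same-number ones. That contrast therefore cannot show shared animals. Whether the numbers mark shared animals is not given in the sample labels, and the main fit treated L and R as independent. Low signal limits R against S, since the R means of cryaa.S, crybb2.L, crybb3.S and crygdl.30.L lay below the array medians.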
